A study of Homo sapiens with 17 samples.

Results

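RNA levels of 10 genes of amino acid transport and of the ATF4 stress response were followed across 17 RNA-seq libraries of squamous cancer cells, out of 57820 genes in each table. The genes are the transporters SLC38A2, SLC7A5, SLC7A11 and SLC3A2, the regulators ATF4, DDIT3 and TRIB3, and the enzymes ASNS, PSAT1 and PHGDH. They were chosen by symbol, and the family was selected on a measured value, since SLC38A2 was among the strongest falls after the drug ARV-771. Values of the 10 genes in that comparison are therefore a description without a test. All other comparisons used different libraries, except that the contrast of control cells between the cell lines included the 2 DMSO libraries. That contrast is therefore not fully separate from the choice of the family.

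The study asked how the enhancer e1, a noncoding element near the oncogene SOX2, controls SOX2 in squamous cancers. KYSE140 is an esophageal squamous cancer line and supplied 13 libraries. It carried a stable CRISPRi system (an inactive Cas9 that represses its target) with negative-control guides NC 1 and 2 (CRISPRi_NC, 2 libraries) or guides e1 1 and 2 (CRISPRi_e1, 2 libraries). It carried active Cas9 with guides to AAVS1 and to the chromosome 2 site Chr2.2 (Cas9_control, 2 libraries) or SOX2 guides 2, 3 and 4 (Cas9_SOX2, 3 libraries). Further KYSE140 cultures, A and B of each, received DMSO (2 libraries) or ARV-771, a degrader of BET bromodomain proteins, at 0.5 µM (2 libraries), both for 6 h. SKMES1, a lung squamous cancer line, supplied 4 libraries and carried dCas9-VP64 (CRISPRa, an inactive Cas9 fused to an activator) with guides NC 1 and 2 (CRISPRa_NC, 2 libraries) or e1 1 and 3 (CRISPRa_e1, 2 libraries). Guide-carrying cells were selected with puromycin and no clone was named, so each replicate was a separate guide and the spread between replicates includes the spread between guides. The labels give no further origin of cultures A and B, and p-values measure only the spread between these libraries, which may be technical.

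Amino acids enter cells through membrane carriers. SLC38A2 (SNAT2) takes up small neutral amino acids together with sodium, while SLC3A2 (CD98 heavy chain) is the glycoprotein partner that brings the light chains SLC7A5 (LAT1, large neutral amino acids) and SLC7A11 (xCT, cystine in exchange for glutamate) to the cell surface. When amino acids are short or proteins misfold, kinases phosphorylate the initiation factor eIF2α, bulk translation drops and the mRNA of the transcription factor ATF4 is translated more efficiently, so that ATF4 activity can change without a change of its mRNA. ATF4 binds with C/EBP proteins at the promoters of transporters, of synthesis enzymes, of DDIT3 (CHOP, a stress transcription factor) and of TRIB3 (a pseudokinase that damps ATF4 signalling).

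The targeted gene was checked first. SOX2 stood at 379 and 365 TPM in CRISPRi_NC and at 119.6 and 128 TPM in CRISPRi_e1. It stood at 397 and 428 TPM in Cas9_control and at 103, 125 and 221 TPM in Cas9_SOX2, where guide 4 left the highest level. It was 236 and 223 TPM with DMSO and 9.80 and 10.5 TPM with ARV-771, and 1.68 and 1.53 TPM against 224 and 316 TPM in SKMES1 with control and e1 guides, so every group followed its label. Total expected counts ran from 7260730 to 15781463 per library. In KYSE140 the squamous markers KRT5 (2398 to 8392 TPM) and TP63 (29.6 to 182 TPM) were present in every library. In SKMES1 KRT5 (0.050 to 1.26 TPM), TP63 (1.87 to 3.79 TPM) and CDH1 (0.60 to 4.74 TPM) were low in every library while KRT8 (375 to 685 TPM) and KRT18 (253 to 460 TPM) were not. The squamous keratins KRT17 (2.73 to 977 TPM) and KRT14 (0 to 118 TPM) varied widely between SKMES1 libraries. The 2 CRISPRa_NC libraries stood apart from each other more than any other pair (chi-square per degree of freedom of 28.8, against 2.19 to 13.4 elsewhere).

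The 10 genes are protein coding and lie on 9 chromosomes. In GRCh37, the equivalent of the hg19 build the authors used, the transporters were placed at chr12:46751971-46766556 (SLC38A2, minus strand), chr16:87863629-87903113 (SLC7A5, minus), chr4:139085251-139163503 (SLC7A11, minus) and chr11:62623476-62656352 (SLC3A2, plus). The regulators were at chr22:39915700-39918688 (ATF4, plus), chr12:57910371-57915520 (DDIT3, minus) and chr20:343479-378203 (TRIB3, plus), and the enzymes at chr7:97480989-97501854 (ASNS, minus), chr9:80912041-80945009 (PSAT1, plus) and chr1:120191034-120286841 (PHGDH, plus). RefSeq promoter windows, which reach from 250 bases before to 50 bases after a transcript start, were given for 9 of the 10 genes in 16 windows, all of which matched GRCh37 exactly once. SLC7A11 was not among them. The C/EBP-ATF response element, the joint site of ATF4 and C/EBP proteins, was searched as TGATGNAAN on both strands. It was present in 1268 of 35116 windows of all genes (3.61%) and in 2 of the 16 windows of the 10 genes (12.5%). Counted per gene, it was in 2 of the 9 genes with windows and in 14 of 78 genes of the wider lists described further on. A gene with several windows counts once here. No share per gene was computed over all genes, so the counts per gene have no background. Both stretches with the element are shown as the sites these letters pick out, with the element in capitals and the gene's strand read 5′ to 3′. The ASNS site, at chr7:97501770-97501798 and 68 bases before the start of a RefSeq transcript, also lies inside the ASNS gene span given above. The SLC3A2 site, at chr11:62649197-62649220, begins 36 bases after a start and reads on the opposite strand.
ASNS: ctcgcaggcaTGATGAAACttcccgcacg
SLC3A2: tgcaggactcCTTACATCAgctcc
The 250 bases before the start of SLC38A2 (chr12:46766557-46766806, minus strand) are shown because SLC38A2 had the widest range of levels among the 10 genes. No match was found in them, which says only that these letters are not in this window.
SLC38A2: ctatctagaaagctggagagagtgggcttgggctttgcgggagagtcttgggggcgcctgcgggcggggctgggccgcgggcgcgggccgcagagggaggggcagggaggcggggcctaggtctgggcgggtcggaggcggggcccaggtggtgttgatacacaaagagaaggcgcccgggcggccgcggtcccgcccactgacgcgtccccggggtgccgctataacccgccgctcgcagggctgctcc

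Levels per transcript length (TPM) placed SLC3A2 highest of the 10 genes in every library. SLC38A2 ranged from 6.37 TPM with ARV-771 to 373 TPM in Cas9_SOX2, the largest span of the 10 genes on a log scale, and SLC7A11 from 1.86 to 92.7 TPM. ATF4 varied least, between 156 and 417 TPM. The KYSE140 control groups were not at one level. SLC7A11 was 6.96 and 8.24 TPM in CRISPRi_NC, 20.3 and 21.2 TPM in Cas9_control and 2.96 and 3.09 TPM with DMSO. TRIB3 averaged 24.5 ± 0.580 TPM (SD, n = 2) in CRISPRi_NC and 42.0 ± 8.85 TPM in Cas9_control, and was 13.8 and 12.2 TPM with DMSO. Each perturbation was compared only with its own control group.

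Reads of SLC7A5, SLC7A11 and ATF4 were in part shared with other genes, since their expected counts were not whole in 17, 16 and 6 of the 17 libraries, and their levels carry that uncertainty. The other 7 genes had whole counts in all libraries. These are bulk samples, in which fewer cells of a type and less RNA per cell cannot be told apart.

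**Figure D1:**
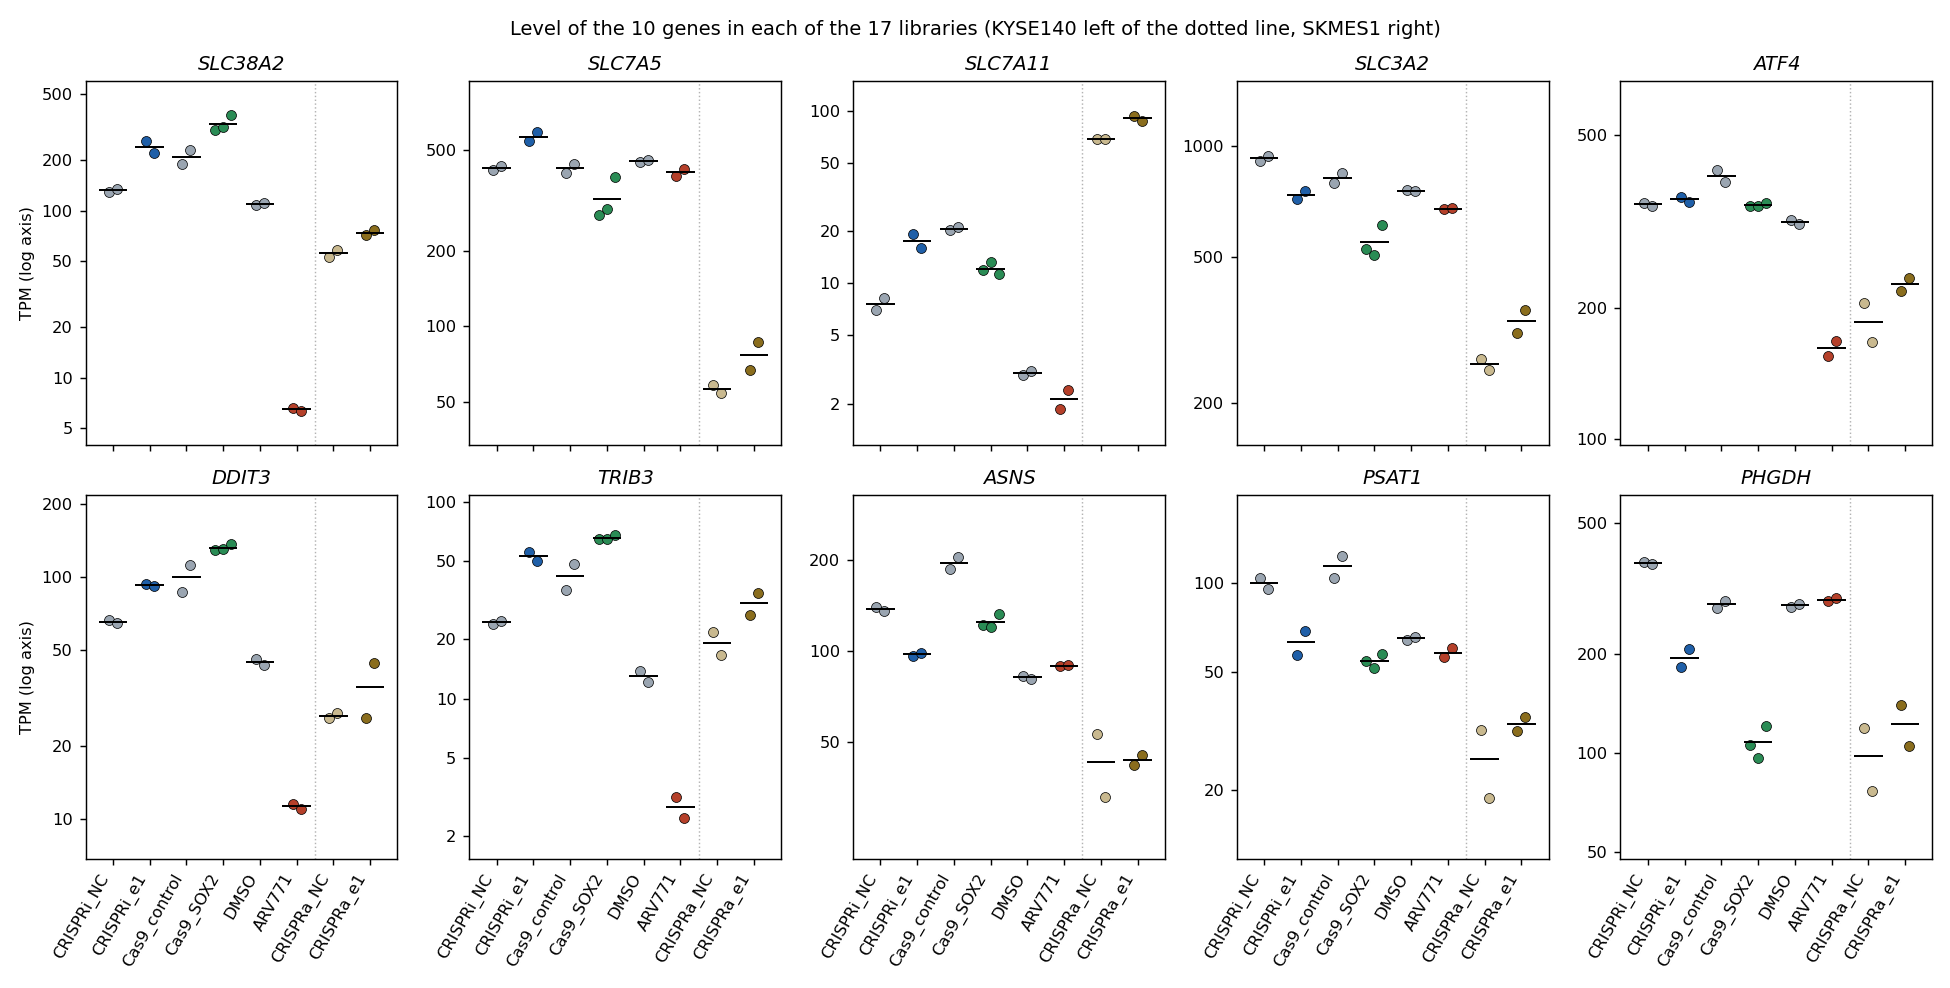
Level of each of the 10 genes in TPM (log axis) in the 17 libraries, 1 point per library, with the group mean as a line and the groups in the order control, perturbed. SLC38A2, DDIT3 and TRIB3 are lowest in the 2 ARV-771 libraries, the 3 enzymes are lower in CRISPRi_e1 and Cas9_SOX2 than in their controls, and SLC7A11 is higher in the 4 SKMES1 libraries than in any KYSE140 library.

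Lower SOX2, reached either through e1 repression or through SOX2 knockout, went with higher SLC38A2 and TRIB3 and with lower PHGDH and PSAT1 RNA. A gene was called at an adjusted p under 0.05 (edgeR quasi-likelihood test, Benjamini-Hochberg over all genes tested) and a fold change over 1.5. After e1 repression 5 of the 10 genes were called, 3 higher and 2 lower, beside 20% of all 13792 genes tested (9.3% higher and 10.7% lower). After SOX2 knockout 6 of the 10 were called, 3 higher and 3 lower, beside 29.7% of 13978 genes (16.3% higher and 13.5% lower). All 5 genes called after e1 repression were also called after SOX2 knockout, 4 of them in the same direction, and SLC7A11 in the opposite one. Of 13424 genes tested in both comparisons, which share no library, 2668 were called after e1 repression and 3813 after SOX2 knockout. Called in both were 1694 genes, 1630 of them (96.2%) in the same direction. With library size alone as the scaling, the median gene moved by -0.21 after SOX2 knockout, and the share of higher genes among all called went from 54.7% to 36.2%.

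SLC38A2, the sodium-coupled neutral amino acid carrier, was 129.9 and 135 TPM in CRISPRi_NC and 260.3 and 220.4 TPM in CRISPRi_e1. It was 191 and 231 TPM in Cas9_control and 304, 319 and 373 TPM in Cas9_SOX2. Groups did not overlap in either comparison. SLC38A2 rose by a log2 fold change of 0.83 (SE 0.06, adjusted p = 1.04e-08) after e1 repression and of 0.88 (SE 0.08, adjusted p = 2.39e-06) after SOX2 knockout. The difference between both effects was -0.03 (SE 0.11, adjusted p = 0.895).

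SLC7A11, the cystine carrier, was 6.96 and 8.24 TPM in CRISPRi_NC and 19.3 and 16.1 TPM in CRISPRi_e1, and 20.3 and 21.2 TPM in Cas9_control and 11.9, 13.2 and 11.3 TPM in Cas9_SOX2. It rose after e1 repression (log2 fold change 1.05, SE 0.08, adjusted p = 4.26e-08) and fell after SOX2 knockout (-0.92, SE 0.12, adjusted p = 5.67e-05). The effects differed by 1.99 on the log2 scale (SE 0.17, adjusted p = 2.89e-06 for the interaction). Both perturbed groups lay between the levels of the 2 control groups. The RSEM effective length of SLC7A11 ranged from 5782 to 9441 bases over the Cas9_SOX2 libraries and from 9429 to 9433 in CRISPRi_NC, so the transcripts assigned to the gene differed between libraries, and the part of this in its level was not tested.

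SLC7A5, the large neutral amino acid carrier, was 418 and 434 TPM in CRISPRi_NC and 543 and 590.4 TPM in CRISPRi_e1. It was 408 and 441 TPM in Cas9_control and 278, 292 and 392 TPM in Cas9_SOX2. CRISPRi_e1 lay above its controls and Cas9_SOX2 below its own, without overlap. The log2 fold change was 0.43 after e1 repression (SE 0.05, adjusted p = 2.46e-06), under the fold of 1.5, and -0.21 after SOX2 knockout (SE 0.10, adjusted p = 0.099). The effects differed by 0.66 (SE 0.13, adjusted p = 0.00182).

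SLC3A2, the heavy chain that both light chains need, was 912 and 941 TPM in CRISPRi_NC and 717 and 757 TPM in CRISPRi_e1, and 793 and 847 TPM in Cas9_control and 525, 504 and 611 TPM in Cas9_SOX2. It was lower in both perturbed groups without overlap, by less than the fold of 1.5. Its log2 fold change was -0.33 (SE 0.05, adjusted p = 2.66e-05) and -0.41 (SE 0.07, adjusted p = 0.00039). With library size alone the knockout value was -0.61, which passed the fold. Over the interaction contrast 2 of the 10 genes were called, SLC7A11 and SLC7A5, both higher in e1 repression relative to SOX2 knockout, beside 16.6% of 14455 genes (8.21% higher and 8.37% lower; with library size alone 67.6% of the calls were higher, against 49.5%).

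ATF4 mRNA itself passed the test in neither comparison. It was 349 and 345 TPM in CRISPRi_NC and 362 and 351 TPM in CRISPRi_e1 (log2 fold change 0.06, SE 0.05, adjusted p = 0.402), and 417 and 391 TPM in Cas9_control and 344, 343 and 350.1 TPM in Cas9_SOX2 (-0.02, SE 0.07, adjusted p = 0.802). In TPM the Cas9 groups did not overlap, and with library size alone the log2 fold change after SOX2 knockout was -0.22, also under the fold of 1.5. The protein was not measured in these libraries.

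DDIT3, the stress transcription factor CHOP, was 66 and 64.3 TPM in CRISPRi_NC and 93.4 and 91.5 TPM in CRISPRi_e1. The difference was 0.53 on the log2 scale (SE 0.09, adjusted p = 0.00019), under the fold of 1.5. DDIT3 rose from 86.9 and 112 TPM in Cas9_control to 128, 130.4 and 136 TPM in Cas9_SOX2 (0.62, SE 0.10, adjusted p = 0.000184). That call rested on 1 library and on the scaling, since the log2 fold change was 0.47 without Cas9_control 1, 0.42 with library size alone and 0.41 with limma on log2(TPM + 1), all under the fold.

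TRIB3, a feedback inhibitor of ATF4, rose in both comparisons. It was 24.1 and 24.9 TPM in CRISPRi_NC and 56 and 50.3 TPM in CRISPRi_e1 (log2 fold change 1.14, SE 0.08, adjusted p = 2.06e-08). It was 35.8 and 48.3 TPM in Cas9_control and 64.9, 64.8 and 67.9 TPM in Cas9_SOX2 (0.93, SE 0.10, adjusted p = 7.32e-06). All libraries of the perturbed groups lay above those of their controls.

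The 3 synthesis enzymes were lower in both comparisons. PHGDH, the first enzyme of serine synthesis from glycolysis, fell from 379 and 374 TPM in CRISPRi_NC to 182 and 206 TPM in CRISPRi_e1 (log2 fold change -0.94, SE 0.06, adjusted p = 3.95e-09). It fell from 276 and 289.8 TPM in Cas9_control to 106, 96.2 and 121 TPM in Cas9_SOX2 (-1.20, SE 0.08, adjusted p = 2.02e-07), the largest fall among the 10 genes in that comparison.

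PSAT1, the aminotransferase that follows PHGDH, fell from 104 and 95.6 TPM to 57.3 and 68.9 TPM after e1 repression (-0.62, SE 0.08, adjusted p = 1.01e-05) and from 104 and 124 TPM to 54.4, 51.8 and 57.8 TPM after SOX2 knockout (-0.87, SE 0.09, adjusted p = 4.98e-06). The e1 call was lost without CRISPRi_NC 1 (-0.56) and without CRISPRi_e1 1 (-0.50). ASNS, which makes asparagine from aspartate and glutamine, was 141 and 136 TPM in CRISPRi_NC and 96.7 and 99 TPM in CRISPRi_e1, and 187 and 206 TPM in Cas9_control and 122, 120.1 and 133 TPM in Cas9_SOX2. Its groups did not overlap, and its differences of -0.57 (SE 0.06, adjusted p = 1.41e-06) and -0.48 (SE 0.07, adjusted p = 0.000129) stayed under the fold of 1.5. Both differences of ASNS passed the fold with library size alone (-0.61 and -0.68), and the e1 value also without CRISPRi_e1 2 (-0.59).

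CRISPRi_e1 and Cas9_SOX2 libraries also differed from their controls in markers of other cell types. The summed level of 6 fibroblast, endothelial and leukocyte markers was 14.8 to 17.4 TPM in CRISPRi_NC and 62.1 to 65.0 TPM in CRISPRi_e1, and 14.5 to 22.8 TPM in Cas9_control and 98.8 to 109.9 TPM in Cas9_SOX2, carried by CD68 and COL1A1. Of those tested, 2 of 3 were called after e1 repression and 3 of 3 after SOX2 knockout, beside 20% and 29.7% of all genes. After SOX2 knockout VWF was called at an adjusted p of 0.0494 (edgeR), on 13 and 19 counts in Cas9_control against 50, 15 and 49 in Cas9_SOX2. DESeq2 and library size alone each called 2 of the 3 after SOX2 knockout. The defining markers PTPRC (0 to 0.23 TPM) and PDGFRB (0 to 0.080 TPM) were at or near 0 in KYSE140. DCN went the other way in the Cas9 groups, from 0.35 to 3.92 TPM in Cas9_control to 0 to 0.26 TPM in Cas9_SOX2. It was 0 TPM in CRISPRi_NC and 0 to 0.52 TPM in CRISPRi_e1. VWF was not called after e1 repression (-0.39, SE 0.35, adjusted p = 0.403 by edgeR). The summed level of 9 squamous and epithelial markers was higher, at 13717 to 13915 TPM in CRISPRi_e1 against 8296 to 8391 TPM in CRISPRi_NC and at 37708 to 46309 TPM in Cas9_SOX2 against 10479 to 10653 TPM in Cas9_control. The list was not uniform, with 3 called higher and 3 lower after e1 repression and 5 higher and 3 lower after SOX2 knockout, where KRT14 (3.63 and 4.14 on the log2 scale) was higher and TP63 (-0.62 and -1.22) lower in both. With ARV-771 the sums were close to those of DMSO. The first list held 13.99 to 17.4 against 16.4 to 17.3 TPM, and the second 8364 to 8682 against 8376 to 8609 TPM. Single markers still differed. Of the 9 squamous and epithelial markers 6 were called higher and 1 lower, beside 21.2% and 31.7% of all genes. With library size alone none was higher and 1 lower. TP63 was 29.6 to 32.3 TPM against 145 to 153 TPM with DMSO. CD68 was called higher, on 17.9 and 29.1 counts against 6.07 and 4.83. The part of these shifts in the results was not tested.

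**Figure D2:**
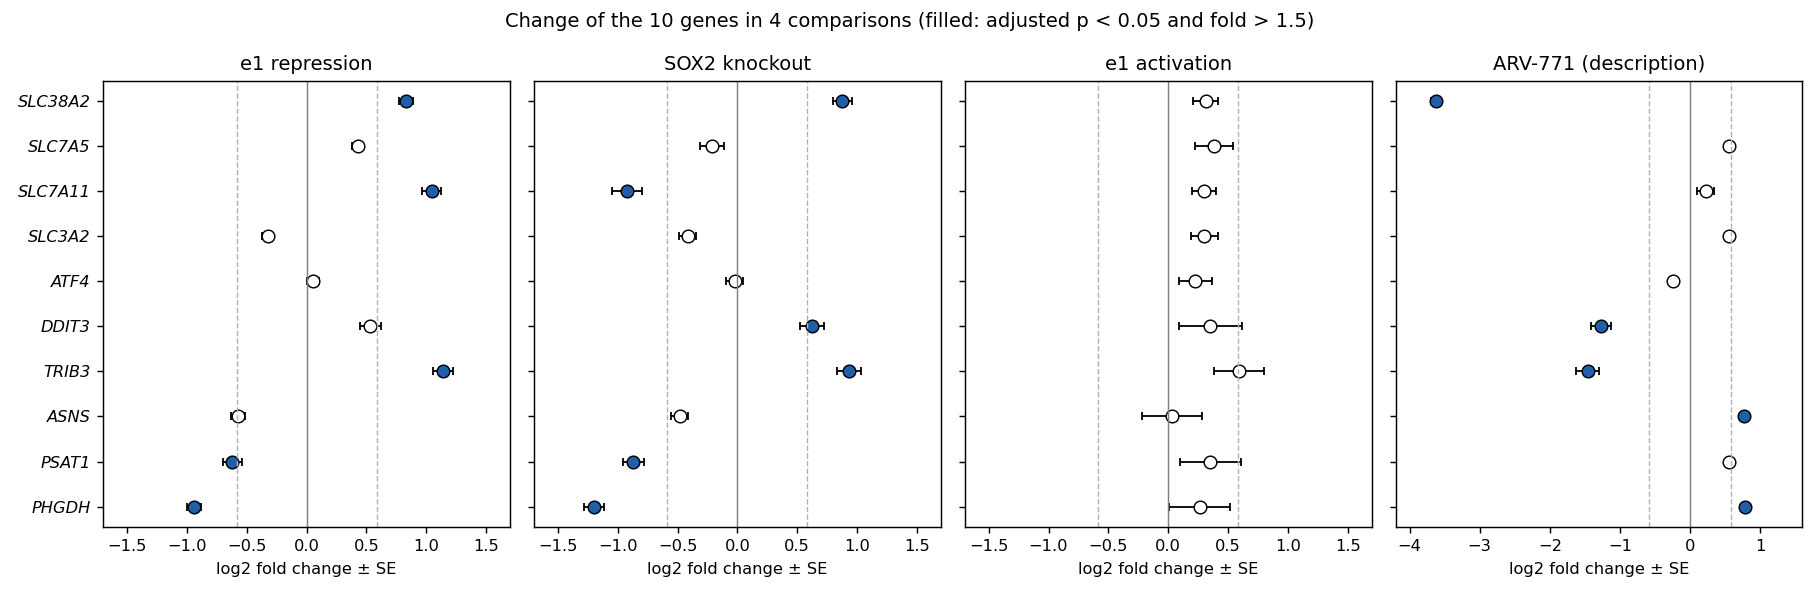
Log2 fold change of each of the 10 genes (points) with its standard error (bars) in 4 comparisons, where dashed lines mark a fold of 1.5 and filled points passed both an adjusted p under 0.05 and that fold. In e1 repression and SOX2 knockout SLC38A2 and TRIB3 lie to the right and PSAT1 and PHGDH to the left, SLC7A11 changes side (1.05 and -0.92), no point is filled in e1 activation, and the ARV-771 panel is a description on a wider axis.

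Genes of the wider pathway were placed in lists by function, and the calls of each list stand beside 20% of all genes called after e1 repression (9.3% higher and 10.7% lower) and 29.7% after SOX2 knockout (16.3% higher and 13.5% lower). The sensors and brakes of the pathway (12 genes of eIF2α kinases, phosphatase subunits and eIF2B) had 2 genes called after e1 repression and 1 after SOX2 knockout, all higher, each a smaller share than among all genes. PPP1R15A (GADD34), which brings a phosphatase to eIF2α, rose by 1.43 (SE 0.07, adjusted p = 2.37e-10) and 0.94 (SE 0.10, adjusted p = 7.2e-06), and EIF2AK4 (GCN2), the kinase that senses uncharged tRNA, by 0.66 after e1 repression (SE 0.09, adjusted p = 1.99e-05). The EIF2AK4 effect was 1.16 higher in e1 repression than in SOX2 knockout (SE 0.13, adjusted p = 2.19e-05).

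ATF4 partners and related factors (9 genes) had 3 called higher and 2 lower after e1 repression, and 5 higher and none lower after SOX2 knockout. Median log2 fold changes were 0.12 and 0.75, against -0.002 and -0.007 over all genes tested. ATF3 rose by 1.55 (SE 0.12, adjusted p = 3.36e-08) after e1 repression and CEBPB by 1.67 (SE 0.11, adjusted p = 1.41e-07) after SOX2 knockout. CEBPA, a differentiation factor of the same protein family, fell by 0.97 on the log2 scale after e1 repression (adjusted p = 5.39e-05) and rose by 0.75 after SOX2 knockout (adjusted p = 0.00581), a difference of -1.695 (SE 0.26, adjusted p = 0.000275).

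Other ATF4-linked stress genes, of which 9 of 10 were tested, had 4 called higher and 1 lower after e1 repression, beside 9.3% and 10.7% of all genes, and 5 higher and none lower after SOX2 knockout, beside 16.3% and 13.5%. TNFRSF10B, the death receptor DR5, rose by 1.63 (SE 0.10, adjusted p = 1.84e-09) and 1.07 (SE 0.09, adjusted p = 1.33e-06), and GDF15, a secreted stress signal, by 1.67 (SE 0.13, adjusted p = 4.51e-07) after SOX2 knockout. VLDLR, a lipoprotein receptor, fell by 0.90 on the log2 scale after e1 repression (adjusted p = 1.68e-05).

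Among 8 other serine, glycine and one-carbon enzymes 2 were called in each comparison, all lower, with SHMT1 (cytosolic serine hydroxymethyltransferase) falling by 0.74 (adjusted p = 1.91e-05) and 1.06 (adjusted p = 6.06e-06) on the log2 scale. Among 12 enzymes of proline, alanine, aspartate, glutamine and cysteine 1 was higher and 2 lower in each comparison. The higher one was GCLM, the modifier subunit of glutathione synthesis (0.79, SE 0.08, adjusted p = 1.37e-06, and 0.88, SE 0.09, adjusted p = 6.01e-06), while CBS fell after e1 repression (-0.82, adjusted p = 3.99e-06).

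None of 20 cytosolic aminoacyl-tRNA synthetases, which charge tRNAs with amino acids, was called in either comparison by edgeR or DESeq2. By edgeR 10 and 8 of them had an unadjusted p under 0.05, beside 7053 of 13792 and 7925 of 13978 genes tested. Among other amino acid transporters 6 of 18 tested were called after e1 repression, all lower. DESeq2 called 5 of them, beside 16.7% of all genes, and limma on log2(TPM + 1) called 4, beside 14%. The lowest value was that of SLC16A10 (TAT1, aromatic amino acids, -1.41, SE 0.41, adjusted p = 0.0108 by edgeR). It rested on 35 and 42.0 counts in CRISPRi_NC and 8 and 15.9 in CRISPRi_e1. After SOX2 knockout 4 of 20 transporters were higher and 4 lower. SLC1A3, a glutamate carrier, fell by 2.19 on the log2 scale after SOX2 knockout (SE 0.12, adjusted p = 3.64e-08). SLC6A14, an epithelial carrier of neutral and cationic amino acids, had 0 and 1 counts in Cas9_control against 64, 25 and 5 in Cas9_SOX2, and no fold is given for it. Of 12 further genes of the unfolded protein response 1 was higher after e1 repression and 4 after SOX2 knockout, none lower, led by the chaperone DNAJB9 (0.61, adjusted p = 0.00138, and 1.32, adjusted p = 1.42e-06). The single call after e1 repression was lost with library size alone and with limma on log2(TPM + 1). With library size alone, 1703 of all 13978 genes were called higher and 2999 lower after SOX2 knockout, against 2275 and 1882 with TMM. Under that scaling the ATF4 partners had 4 higher and 1 lower, and the stress genes 5 higher and 0 lower. The unfolded protein response had 3 higher and 1 lower, and the synthetases 1 lower. The other transporters had 3 higher and 7 lower. Limma on log2(TPM + 1) gave those transporters 0 higher and 5 lower of 17, beside 1477 higher and 2321 lower of all 14186 genes. Library size alone gave 4 lower for the serine and one-carbon enzymes. It gave 1 higher and 5 lower for the other amino acid enzymes, and 1 higher and 1 lower for the eIF2α list.

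**Figure D3:**
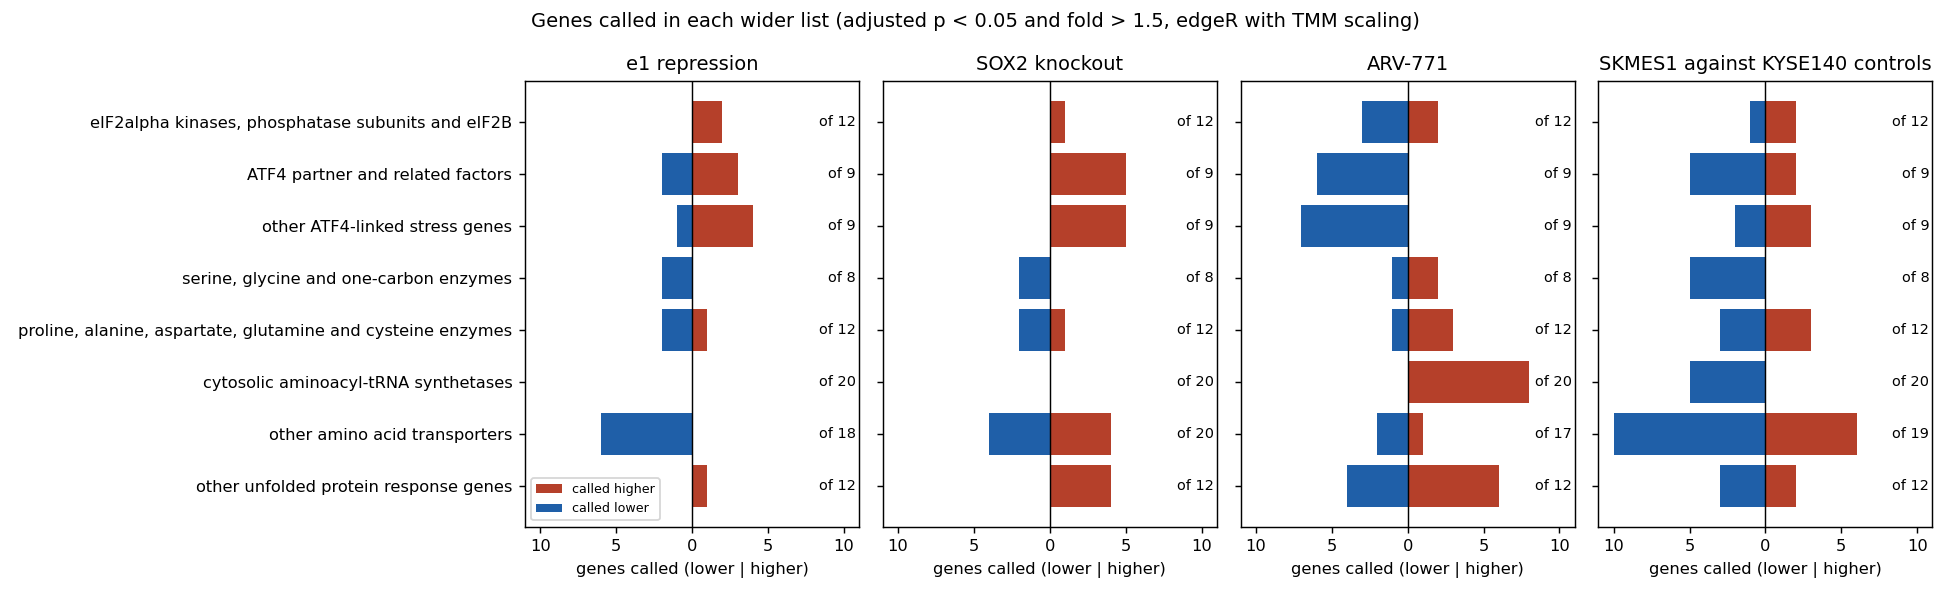
Number of genes called lower (bars to the left) and higher (bars to the right) in each of the 8 wider lists in 4 comparisons, with the number of list members tested at the right edge. The ATF4 partners and ATF4-linked stress genes extend to the right in SOX2 knockout (5 of 9 each) and to the left in ARV-771 (6 of 9 and 7 of 9), and the synthetases are called in ARV-771 and between the lines only.

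ARV-771 treatment went with SLC38A2 levels far below those of DMSO, with lower DDIT3 and TRIB3, and with enzyme levels close to those of DMSO on the TPM scale. SLC38A2 was 108 and 111 TPM (4121 and 4378 expected counts) with DMSO and 6.58 and 6.37 TPM (221 and 303 counts) with ARV-771. Its log2 fold change of -3.63 (SE 0.07) had rank 177 from the lowest among 13500 genes tested. The RSEM effective length of SLC38A2 was 4305 and 4522 bases with DMSO and 3440 and 3883 bases with ARV-771, so the transcripts RSEM assigned to the gene were shorter on average.

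The regulators were lower as well. DDIT3 was 45.9 and 43.2 TPM with DMSO and 11.6 and 11 TPM with ARV-771 (log2 fold change -1.27, SE 0.14), and TRIB3 was 13.8 and 12.2 TPM against 3.18 and 2.46 TPM (-1.46, SE 0.16). ATF4 was 319.8 and 312 TPM against 156 and 168 TPM, with a log2 fold change of -0.24 (SE 0.05) from scaled counts. None of the 3 overlapped between the groups of 2 libraries each, in a comparison where 52.9% of all genes were called. How many of all genes did not overlap was not counted, so nothing is read from this.

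The remaining transporters and the enzymes differed less on the TPM scale. SLC7A5 was 449 and 458 TPM with DMSO and 394 and 423 TPM with ARV-771, SLC3A2 761 and 753 against 675 and 677 TPM, and SLC7A11 2.96 and 3.09 against 1.86 and 2.40 TPM. ASNS was 83 and 80.7 TPM with DMSO against 89 and 90.0 TPM, PSAT1 64.2 and 66 against 56.2 and 60.3 TPM, and PHGDH 277 and 284 against 289 and 294 TPM. TMM scaling of the counts, which assumes that most genes do not change, gave log2 fold changes of 0.56 for SLC7A5, 0.55 for SLC3A2, 0.22 for SLC7A11, 0.77 for ASNS, 0.55 for PSAT1 and 0.78 for PHGDH (SE 0.04 to 0.12). In TPM, ASNS and PHGDH were higher, the other 4 genes were lower, and after TMM all 6 were higher.

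By this scaling 5 of the 10 genes passed the thresholds, 2 higher and 3 lower, beside 52.9% of all genes (21.2% higher and 31.7% lower). The contrast chose the family, so nothing is read from that count. Which way these 6 genes went changed with the scaling. Over genes averaging 50 counts or more, the median of the log2 values was 0.009 with TMM, -0.45 with library size alone, -0.63 on log2(TPM + 1) and -1.07 when counts were scaled to mitochondrially encoded genes, and the share of higher genes among the calls was 40%, 5.9%, 1.89% and 0.823%. Scaled to mitochondrial genes, all 10 genes were lower, with log2 fold changes of -0.31 for ASNS, -0.30 for PHGDH, -0.52 for SLC7A5 and -4.71 for SLC38A2.

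TMM, library size and mitochondrial scaling shift all genes by about the same amount relative to each other, so values relative to that median hardly depend on the choice by construction. Under TMM they were -3.64 for SLC38A2, -1.47 for TRIB3, -1.27 for DDIT3, -0.25 for ATF4 and 0.77 for PHGDH. Mitochondrially encoded genes made up 7.52% and 7.74% of counts with ARV-771 and 4.67% and 5.28% with DMSO. Which scaling follows RNA content per cell was not tested.

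**Figure D4:**
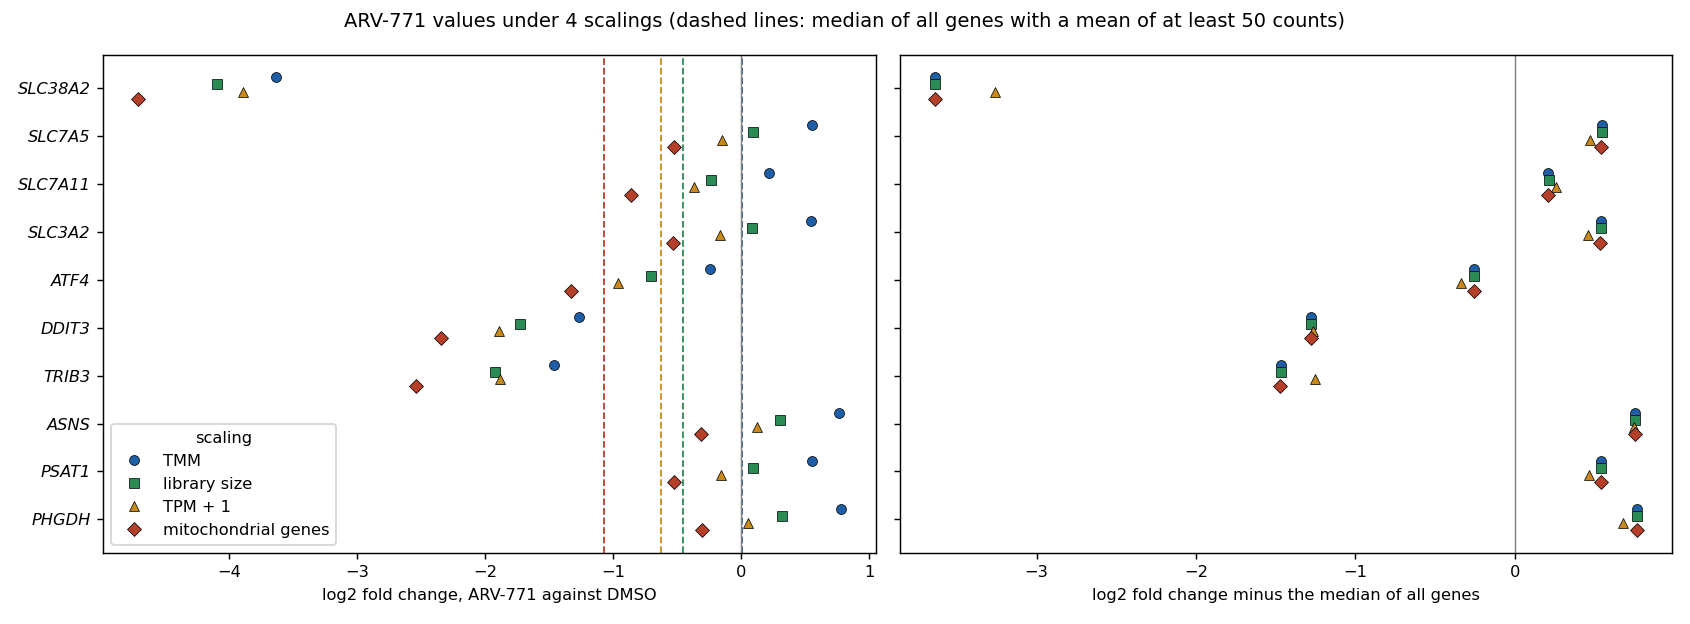
ARV-771 against DMSO under 4 scalings (symbols), as the log2 fold change of each of the 10 genes (left, dashed lines are the median over genes averaging 50 counts or more) and as the same value minus that median (right). On the left ASNS runs from 0.77 with TMM to -0.31 with mitochondrial genes and SLC38A2 stays below -3.6 throughout, and on the right the values of each gene nearly coincide for the 3 scalings of counts, as their construction requires.

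The wider lists are given for ARV-771 by their counts under TMM, as a description. Among all 13500 genes tested 21.2% were called higher and 31.7% lower. Of 9 ATF4 partners 6 were lower and none higher (median -1.57, against -0.04 over all genes tested), with CEBPA at -4.07 (SE 0.27) and CEBPG, the small C/EBP partner of ATF4, at -1.34 (SE 0.07). Of 9 ATF4-linked stress genes 7 were lower and none higher (median -1.71), with the glutathione-degrading CHAC1 at -3.46 (SE 0.40; 78 and 70 counts with DMSO, 6 and 4 with ARV-771). Under library size alone 7 and 8 were lower, beside 6076 of all 13500 genes. Under mitochondrial scaling all 9 of each list were lower, beside 9524 of all 13500 genes.

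The phosphatase subunit PPP1R15B, which keeps eIF2α dephosphorylated without stress, was at -2.19 (SE 0.15), and 2 genes of its list were higher and 3 lower. Of 20 aminoacyl-tRNA synthetases 8 were higher, with WARS at 0.82 (SE 0.05), and none lower. None of them was higher under library size alone, beside 381 of all 13500 genes. Under mitochondrial scaling 10 of them were lower, beside 9524 of all 13500 genes. The serine and one-carbon list had 2 higher and 1 lower, with mitochondrial SHMT2 at 0.74 (SE 0.05), and the list of other amino acid enzymes 3 higher and 1 lower. Of 17 other transporters tested 1 was higher and 2 lower, with the cationic carrier SLC7A1 at -0.80 (SE 0.05). Among 12 unfolded protein response genes 6 were higher, with the chaperone HSP90B1 at 0.98 (SE 0.04), and 4 lower, with DNAJB9 at -2.37 (SE 0.23), and with library size alone none was higher and 4 were lower. In all 8 lists no gene passed as higher under library size alone, where 381 of all 13500 genes were higher and 6076 lower.

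e1 activation in SKMES1 moved none of the 10 genes past the thresholds. SLC38A2 was 52.8 and 58.2 TPM in CRISPRa_NC and 71.6 and 76.4 TPM in CRISPRa_e1 (log2 fold change 0.31, SE 0.10, adjusted p = 0.291), and SLC7A11 was 68.7 and 68.3 TPM against 92.7 and 87.3 TPM (0.30, SE 0.10, adjusted p = 0.302). TRIB3 was 21.8 and 16.6 TPM against 26.6 and 34.3 TPM (0.59, SE 0.21, adjusted p = 0.308). The log2 fold changes of the 10 genes ran from 0.03 for ASNS to 0.59 for TRIB3. The same test called 28 of 14859 genes (0.188% of those tested, made up of 0.168% higher and 0.0202% lower), while 2109 genes had an unadjusted p under 0.05 and DESeq2 called 400. Of the 10 genes, 4 had an unadjusted p under 0.05 and DESeq2 called 0.

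The 2 CRISPRa_NC libraries were far apart, with summed squamous markers of 969 and 2293 TPM against 802 and 816 TPM in CRISPRa_e1, and the part of this in the result was not tested. PSAT1 was 32.1 and 18.9 TPM in CRISPRa_NC, ASNS 53.1 and 32.9 TPM and PHGDH 119 and 76.3 TPM, with guide 1 above guide 2 each time. CRISPRa_e1 held 31.8 and 35.3 TPM of PSAT1, 41.9 and 45.3 TPM of ASNS and 139.8 and 104 TPM of PHGDH, and DDIT3 went from 26.2 and 27.3 to 26.1 and 44 TPM. Without CRISPRa_NC 1, PSAT1 passed as higher (0.79), and TRIB3 passed without the filter on low counts (0.60) and with all 17 libraries in one fit (0.61). No gene of the 8 wider lists was called by edgeR, while 5 of 9 ATF4-linked stress genes had an unadjusted p under 0.05 and DESeq2 called 3 of them, 1 ATF4 partner and 1 serine or one-carbon enzyme.

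Control cells of the lines differed in 9 of the 10 genes, 8 of them lower in SKMES1 and SLC7A11 higher, beside 57.2% of 15532 genes (31.4% higher and 25.8% lower). This contrast set CRISPRa_NC against the mean of the 3 KYSE140 control groups, whose libraries also served the comparisons above, and the line and the CRISPR system cannot be told apart. SLC7A5 had a log2 fold change of -3.08 (adjusted p = 8e-10), from 408 to 458 TPM in KYSE140 controls to 58.6 and 54.1 TPM. SLC7A11 stood at a log2 fold change of 3.00 (adjusted p = 2.69e-10), from 2.96 to 21.2 TPM to 68.7 and 68.3 TPM. The light chains thus differed in opposite directions, and SLC3A2 had a log2 fold change of -1.81 (adjusted p = 7.68e-09).

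The ratio of SLC7A5 to SLC7A11 TPM ran from 20.1 to 212 over the 13 KYSE140 libraries and from 0.724 to 0.995 over the 4 SKMES1 libraries. Within KYSE140 it was 52.7 and 60.03 in CRISPRi_NC and 28.2 and 36.8 in CRISPRi_e1, 20.1 and 20.9 in Cas9_control and 22.1 to 34.6 in Cas9_SOX2, 148 and 152 with DMSO, and 212 and 176 with ARV-771. Their sum against SLC3A2 varied less, from 0.466 to 0.801 over all 17 libraries, with the highest values of 0.785 and 0.801 in CRISPRi_e1.

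**Figure D5:**
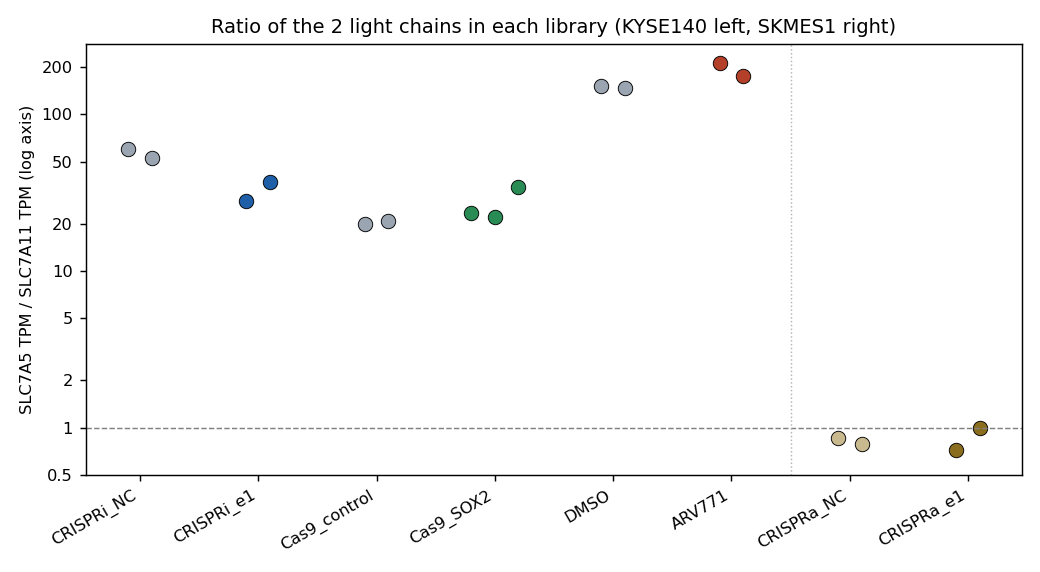
Ratio of SLC7A5 to SLC7A11 TPM (log axis) in each library, with a dashed line at a ratio of 1 and 1 point per library. The 13 KYSE140 libraries lie between 20.1 and 212 and the 4 SKMES1 libraries just under 1, between 0.724 and 0.995.

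Among the regulators, ATF4 (log2 fold change -1.05, adjusted p = 2.57e-06) and DDIT3 (-1.43, adjusted p = 1.28e-06) were lower in SKMES1, and TRIB3 was at -0.37 (adjusted p = 0.0285), under the fold of 1.5 unless CRISPRa_NC 1 was left out (-0.61). SLC38A2 was at -1.50 (adjusted p = 6.1e-08). The enzymes ASNS (-1.73, adjusted p = 4.21e-06), PSAT1 (-1.96, adjusted p = 3.24e-06) and PHGDH (-1.79, adjusted p = 2.18e-06) were all lower. In the wider lists 5 of 8 serine and one-carbon enzymes were lower and none higher, with the mitochondrial folate enzyme ALDH1L2 at 17 and 2 counts in CRISPRa_NC against 517 to 804 in KYSE140 controls.

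Of 19 other transporters 6 were higher and 10 lower, with SLC7A8 (LAT2, a further partner of SLC3A2) at 31 and 28 counts in CRISPRa_NC against 5348 to 13901 in KYSE140 controls (log2 fold change -8.50, SE 0.12, adjusted p = 2.91e-11). GCLM was at 2.96 (SE 0.06, adjusted p = 1.4e-10) and its list had 3 higher and 3 lower. Of 20 synthetases 5 were lower and none higher, with MARS at -1.43 (SE 0.08, adjusted p = 7.36e-08). ATF4 partners had 2 higher and 5 lower, ATF4-linked stress genes 3 higher and 2 lower (TNFRSF10B 2.58 and DDIT4 -2.89), the eIF2α list 2 higher and 1 lower (EIF2AK4 1.46), and the unfolded protein response 2 higher and 3 lower.

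Genes with the most similar pattern were sought over the log2 fold changes of e1 repression, SOX2 knockout, ARV-771 and e1 activation, among 8470 genes with a mean of at least 10 TPM, by the root mean square difference. This is a description over 4 comparisons. Nearest to SLC38A2 were IRF2BP2 (0.154), ZNF668 (0.300) and PELO (0.328), nearest to SLC7A11 were GSTM3 (0.284), RHOBTB3 (0.320) and EIF2AK4 (0.325), and nearest to ASNS were C7orf50 (0.039), BTBD2 (0.040) and PI4KA (0.054). Among the 10 genes themselves the closest pairs were SLC3A2 with ASNS (0.215) and PSAT1 with PHGDH (0.260), and DDIT3 lay closest to TRIB3 (0.374).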

How the data were processed

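Poly-A RNA was sequenced from 17 cultures of squamous cancer cells. The authors aligned reads with Bowtie2 and deposited RSEM gene tables on hg19 with GENCODE genes. The expected count (estimated reads per gene, fractional where reads are shared) and the TPM (a share of all transcripts, corrected for effective length by the authors) were used as deposited. Versions and the strand setting of the counting are not given in the sources used here. FPKM values were not used.

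Expected counts were rounded and tested with edgeR 4.0.16 (R 4.3.3; quasi-likelihood F test, TMM scaling, genes filtered at a minimum count of 10 and a minimum total of 15). Calls required a p under 0.05 after Benjamini-Hochberg adjustment across every gene tested and a fold over 1.5. Only the groups compared entered a fit, and the difference between e1 repression and SOX2 knockout was an interaction contrast over 4 groups. Total expected counts were 7260730 to 15781463 per library. Replicates differed by more than sampling noise (chi-square per degree of freedom of 2.19 to 28.8). Alternatives were DESeq2 1.42.0, RLE factors, library size alone, no filter, no minimum fold, all 17 libraries in one fit, limma 3.58.1 on log2(TPM + 1) and log2(TPM + 0.1) (genes averaging 1 TPM or more), a replicate block, mitochondrial scaling and leaving out each library. The fitting code was tested on simulated data.

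The 10 genes, the wider lists and the tests were chosen with earlier results of these data known. All 10 genes are named. From each wider list the called genes with the highest and lowest log2 fold change in a comparison could be named, and for SLC38A2, SLC7A11 and ASNS the 3 genes with the nearest pattern. Of 7 fibroblast, endothelial and leukocyte markers 6 were matched by symbol. Promoter sequences are from RefSeq. Some items are not reported here.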

Additional observations from a re-analysis of the deposited data

Results flagged for a closer look

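By the edgeR interaction test, 2 of the 10 genes responded differently to e1 repression and to SOX2 knockout, beside 16.6% of all 14455 genes. SLC7A11 was higher by 1.99 on the log2 scale in e1 repression relative to SOX2 knockout (SE 0.17, adjusted p = 2.89e-06), with both CRISPRi_e1 libraries above their controls and all 3 Cas9_SOX2 libraries below theirs. SLC7A5 was higher by 0.661 (SE 0.13, adjusted p = 0.00182), with the same directions of TPM in the same libraries. Its own change after SOX2 knockout did not pass the edgeR test (-0.21, SE 0.10, adjusted p = 0.099). Both calls were kept under all 17 alternatives run for this contrast, over which SLC7A11 ranged from 1.85 to 2.16 and SLC7A5 from 0.60 to 0.83. Control levels of SLC7A11 were 6.96 and 8.24 TPM with CRISPRi and 20.3 and 21.2 TPM with Cas9, and reads of both genes were in part shared with other genes. The CRISPR system and the way SOX2 was lowered cannot be told apart.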

How the results depend on the processing

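Of 850 values of single genes under the alternatives, 768 kept direction and call, 37 gained a call, 12 lost it and 33 changed sign. The cause of these changes was not tested.

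The number of the 10 genes called after e1 repression was 9 with no minimum fold, beside 44.3% of all genes. For ARV-771 it was 8 with DESeq2 (beside 49.4% of all genes), with RLE factors (54.3%) and with all 17 libraries (44.2%). With no minimum fold it was 9 (75.2%). The ARV-771 contrast chose the family, so nothing is read from its counts. For e1 activation the number was 1 (TRIB3) without the filter (beside 4.6% of all genes) and with all 17 libraries (4.76%). Leaving out single libraries gave 4 to 6 called after e1 repression, 5 to 6 after SOX2 knockout, 5 to 6 with ARV-771, 0 to 1 in e1 activation, 9 to 10 between the lines and 2 for the interaction.

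With the replicate block, 5 genes were called after e1 repression and 5 with ARV-771, as without it, and all-gene calls were 2807 against 2764 and 7090 against 7136. Deviations of same-numbered libraries correlated at -0.018 and -0.008 over 11761 genes. No pairing was seen in this, but a single difference per group cannot tell whether same-numbered libraries were handled together.

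In ARV-771, library size alone gave SLC7A11 -0.238. On log2(TPM + 1) SLC7A5 was -0.15, SLC7A11 -0.368, SLC3A2 -0.162 and PSAT1 -0.158, and on log2(TPM + 0.1) they were -0.151, -0.497, -0.163 and -0.16. Mitochondrial scaling gave SLC7A5 -0.524, SLC7A11 -0.858, SLC3A2 -0.534, ASNS -0.312, PSAT1 -0.526 and PHGDH -0.301. For the interaction, SLC38A2, DDIT3 and ASNS were 0.114, 0.068 and 0.069 with library size alone, 0.194, 0.085 and 0.15 on log2(TPM + 1), and 0.196, 0.088 and 0.15 on log2(TPM + 0.1).

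Leaving out single libraries moved ATF4 between -0.084 and 0.038 after SOX2 knockout. In e1 activation it moved DDIT3 between -0.065 and 0.664, ASNS between -0.295 and 0.452 and PHGDH between -0.039 and 0.641. In the interaction SLC38A2 ran from -0.142 to 0.089 and DDIT3 from -0.219 to 0.079. Where 1 library was left in a group, it was assumed to vary like the others.

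Depth limits the low levels with ARV-771, where TRIB3 rested on 71 and 69 counts and DDIT3 on 76 and 94.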
